A study of Homo sapiens with 204 samples.

Results

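RPL24, a protein of the large ribosomal subunit, was knocked down in A549 cells, and mRNA levels, ribosome footprints and their ratio were compared with controls. The knockdown is represented by 2 lysates, each sequenced by RNA-seq and by Ribo-seq, which makes 4 of the 204 libraries of the series. They were taken by their labels, siL24 with sample number 9, and set against 6 lysates with non-targeting small interfering RNA (siRNA) that carry the sample numbers 11, 20 and 21 in the count columns, 2 lysates each. For the last pair, the columns read 21_1 and 21_2 while the sample titles give the numbers 21 and 22, so whether these 2 lysates share a sample number is not settled by the labels. A549 is an established human lung adenocarcinoma line, and all groups had 40 nM siRNA for 24 h and cycloheximide, which halts elongating ribosomes, just before harvest. A second reference was the mean of 15 other ribosomal protein knockdowns with 2 lysates each, of which 3 (RPL15, RPL21 and RPL29) target the large and 12 the small subunit. RNA-seq counts reads over exons and Ribo-seq counts ribosome-protected fragments over coding sequences. The labels give no siRNA sequence and no rescue of RPL24, so effects of the siRNA that do not pass through RPL24 cannot be told apart from those that do.

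RPL24 sits on the face of the large subunit that meets the small subunit, and it joins the pre-60S particle late, in the cytoplasm, when it replaces its relative RSL24D1 on the maturing particle. Cells short of a ribosomal protein are known to stabilise p53 through free RPL5 and RPL11, which bind MDM2. In mice, reduced Rpl24 is known for small size, skeletal and pigment defects, and for slowed growth of several tumour models.

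The RPL24 gene lies on chromosome 3 from 101681091 to 101686718 on the reverse strand (RefSeq, GRCh38.p14). Like other ribosomal protein mRNAs it belongs to the class with a 5′ terminal oligopyrimidine (TOP) tract, an unbroken run of C and T from the cap that couples translation to growth signals. Because the footprint-to-mRNA results below turn on this class, the 30 bases around the annotated start (15 before, 15 from it) are shown for RPL24, for 6 TOP-type mRNAs whose ratio was lower and for 4 mRNAs whose ratio was higher. They are written 5′ to 3′ on the transcribed strand from RefSeq, and capitals mark the longest unbroken run of C and T.
RPL24, chr3:101686704-101686733, reverse: ttcccatgaTTCTCTCTTTCTTTTCgccat
RPLP1, chr15:69452803-69452832, forward: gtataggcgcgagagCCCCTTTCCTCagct
RPLP0, chr12:120201097-120201126, reverse: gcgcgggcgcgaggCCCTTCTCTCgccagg
RPS6, chr9:19380222-19380251, reverse: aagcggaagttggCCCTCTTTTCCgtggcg
RPS23, chr5:82278340-82278369, reverse: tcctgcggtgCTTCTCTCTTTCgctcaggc
EIF4B, chr12:53006441-53006470, forward: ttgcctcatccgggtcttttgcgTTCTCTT
EEF2, chr19:3985449-3985478, reverse: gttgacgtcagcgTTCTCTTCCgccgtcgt
PFDN4, chr20:54208072-54208101, forward: cccgccgcctgcggtagtccagTCCCaaga
MORN2, chr2:38875961-38875990, forward: tattcgCTTCCgggtgagaggtgcccggtc
CXCL2, chr4:74099181-74099210, reverse: cgTTCTCggagagccacagagcccgggcca
CXCL3, chr4:74038675-74038704, reverse: cgaTCTTggggagccacacagcccgggtcg
The run was 16 bases long at RPL24 and 7 to 12 bases at the 6 TOP-type mRNAs, and 4 or 5 bases at the 4 others. At EIF4B the longest run began only at base 9 from the annotated start and reached the end of the window, so its 7 bases may be cut short. A shorter run there, tctttt, spanned the start. At RPL24 and the other TOP-type mRNAs the longest run began at or spanned the start. The 6 were picked from lists of this class, so their longer runs follow in part from that choice. A run of at least 7 bases was found at 31 of 37 large-subunit mRNAs with an entry, at 23 of 25 small-subunit mRNAs, and at 25.6% of the 10058 tested genes with an entry. Among the genes outside the TOP lists the share was 33.1% of 133 genes with a lower ratio and 23.3% of 116 genes with a higher ratio. These runs describe the letters of the genome and not the mapped 5′ ends in these cells.

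The A549 markers KRT8 and KRT18, keratins of simple epithelia, and ALDH1A1, an aldehyde dehydrogenase, were present in all libraries, with mRNA from 850 CPM upward (CPM, the count scaled to a common library total), and 11 of 16 listed lung and A549 markers passed the limit for testing. Some differed from control. ALDH1A1 mRNA was higher by 0.37 on the log2 scale. In footprints MUC5AC was higher (0.84), while AKR1B10 (-0.51, overlapping the controls) and EPCAM (-1.76, at a mean of 2.41 CPM) were lower. Depth was 46626176 and 41025985 counts in RNA-seq and 19524224 and 21153024 in Ribo-seq for the RPL24 lysates, against 30706500 to 42489287 and 15096525 to 41884218 for the controls. The 2 lysates of a sample number were closer to each other than lysates of different numbers in Ribo-seq and, with the exception of control 20, in RNA-seq. The SD of the gene-wise log2 difference within a number ran from 0.0951 to 0.583 in RNA-seq (median 0.121), with the highest between controls 20_1 and 20_2, and from 0.155 to 0.182 in Ribo-seq (median 0.164). Between controls of different numbers the median was 0.602 and 0.548 (lowest 0.399 and 0.298), beside 0.603 and 0.571 between RPL24 and control lysates. The labels do not say whether the 2 lysates of a number are separate cultures. Their counts differed by more than sampling noise, with a chi-square of at least 3.26 per degree of freedom, so they were kept as separate samples, but the p-values over lysates then mostly measure the spread within a number. The test was therefore repeated on 1 sum per sample number, and the few genes it called are named with the results. The RNA-seq library of control 20_2 stood apart from the other controls (SD from the control mean 0.791, others 0.177 to 0.475), and controls 21_1 and 21_2 come from a later block of columns.

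The knockdown was deep in both lysates. RPL24 mRNA stood at 9.09 and 12.2 CPM in the RPL24 lysates and at 398 to 523 CPM in the 6 controls. Its footprints stood at 6.41 and 8.32 CPM against 142 to 224 CPM. Neither assay overlapped with the controls or with the 30 libraries of other knockdowns, the lowest of which held 350 CPM of mRNA. In edgeR's quasi-likelihood test with Benjamini-Hochberg adjustment, which gives all adjusted p-values here, the log2 difference was -5.39 ± 0.14 (SE) for mRNA (adjusted p = 6.31e-20) and -4.61 ± 0.20 for footprints (adjusted p = 6.13e-16). The footprint-to-mRNA ratio of the remaining RPL24 mRNA was higher by 0.80 ± 0.20 on the log2 scale (adjusted p = 0.0288), a call that was lost when either RPL24 lysate was left out (log2 differences 0.77 and 0.82) and on the 8 RPL24 and control libraries alone (0.79, adjusted p = 0.725). RPL24 was also called on sums per sample number, by -5.40 ± 0.57 for mRNA and -4.60 ± 0.45 for footprints. RSL24D1, the assembly factor that RPL24 replaces, had 48.8 and 47.4 CPM of mRNA within the control range of 19.5 to 98.7 CPM and was not called.

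**Figure D1:**
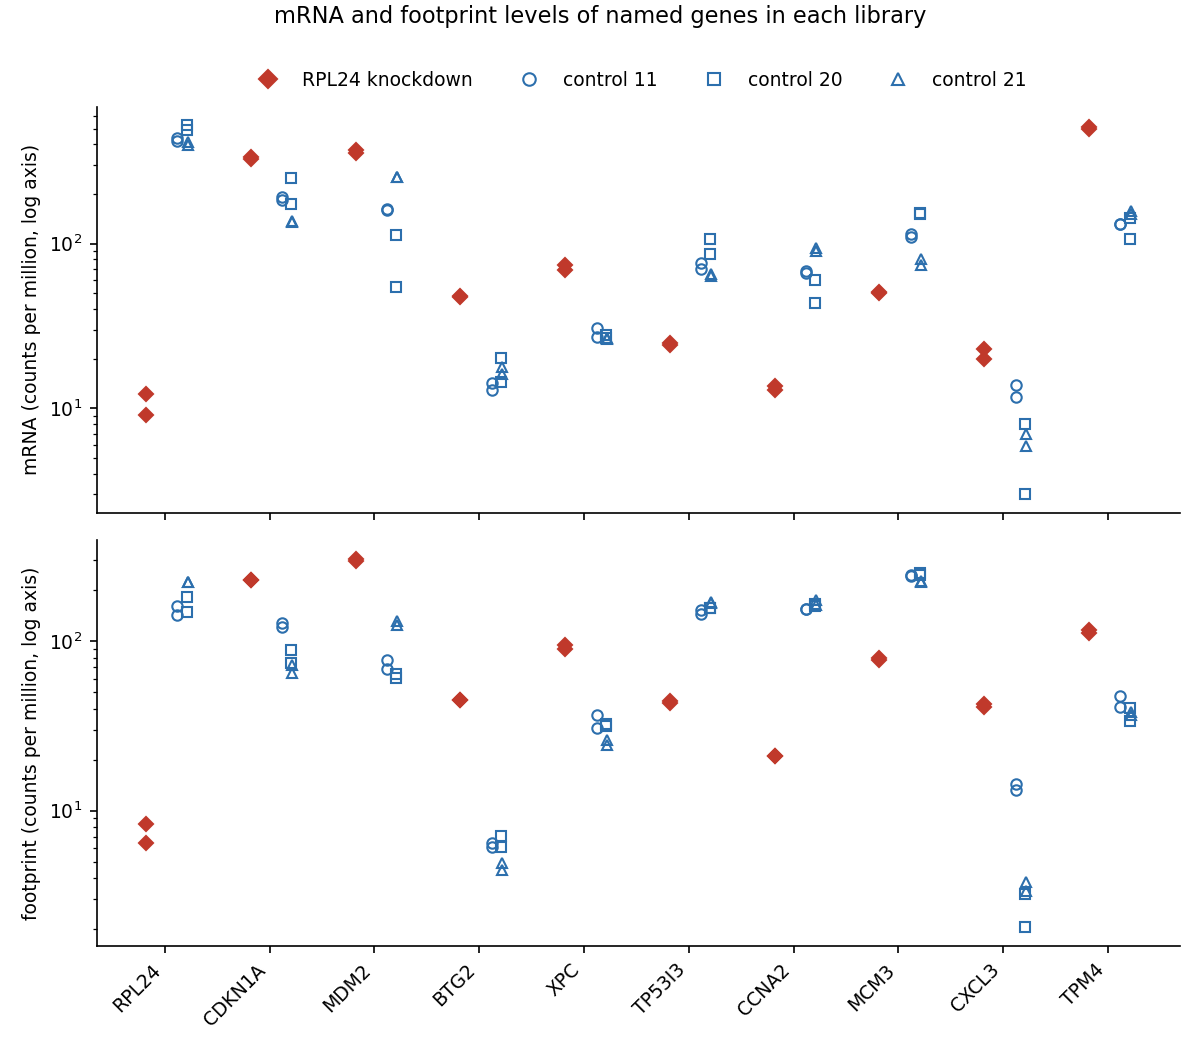
Levels of 10 named genes in each library, mRNA above and footprints below, in CPM on log axes. Diamonds are the 2 RPL24 lysates and open symbols the 2 lysates of each control number. RPL24 itself falls from 398 to 523 CPM in controls to 9.09 and 12.2 CPM in mRNA, and BTG2 and CCNA2 footprints lie far from all 6 controls while CXCL3 is also raised in control 11.

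Genes that p53 activates rose together over control. Of 37 tested p53 targets, 24 were higher and 1 lower in mRNA, and 28 were higher and 3 lower in footprints. Over all genes, 12.1% were called higher and 13.4% lower in mRNA, and 15.5% and 15.8% in footprints. The list's median log2 difference was 0.82 in mRNA and 1.00 in footprints, beside -0.06 and -0.04 over all genes tested. BTG2, an antiproliferative gene, had 44.7 and 45 CPM of footprints against 4.46 to 7.13 CPM in the controls. Its log2 difference was 1.58 ± 0.12 in mRNA (adjusted p = 3.05e-10) and 2.95 ± 0.15 in footprints (adjusted p = 1.94e-14), and its ratio was higher by 1.37 ± 0.21 (adjusted p = 0.000715). BTG2 footprints were also called on sums per sample number (2.94 ± 0.35, adjusted p = 0.0389 by edgeR).

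XPC, which recognises DNA damage for repair, had 73.8 and 69.4 CPM of mRNA against 26.3 to 30.8 CPM. Both lysates lay above every control. CDKN1A encodes the cyclin-dependent kinase inhibitor p21. Its mRNA stood at 334 and 327 CPM (controls 135 to 249 CPM) and its footprints at 228 and 230 CPM (controls 64.7 to 128 CPM), for log2 differences of 0.89 ± 0.15 and 1.32 ± 0.18. MDM2, the ligase that degrades p53, had 307 and 298 CPM of footprints against 60.4 to 132 CPM (1.78 ± 0.18), while its mRNA, at 353 and 370 CPM, varied from 54.1 to 254 CPM among controls and differed by 1.12 ± 0.30. On the 8 libraries of RPL24 and control alone, 9 of the 37 p53 targets were higher and 1 lower in mRNA, where 1.02% and 0.968% of all genes were.

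TP53I3, an oxidoreductase gene that p53 also activates, went the other way. Its mRNA stood at 25 and 24.2 CPM against 63.2 to 106 CPM in the controls and 73.5 to 536 CPM in the other knockdowns, and its footprints at 44.1 and 43.0 CPM against 144 to 171 CPM and 146 to 1060 CPM. Both RPL24 lysates were below every library of the 2 references, with log2 differences in mRNA of -1.66 ± 0.15 from control and -2.56 ± 0.15 from the other knockdowns (adjusted p = 1.12e-08 and 2.01e-11). The others with lower footprints were RRM2B, a ribonucleotide reductase subunit (-0.48 ± 0.15), and DDB2, a damage-recognition protein, both named after their values were seen. DDB2 had footprints of 49.1 and 49.0 CPM against 64.1 to 76.2 CPM in controls and 80.9 to 221 CPM in the other knockdowns. Over the whole list, the median difference from the other knockdowns was -0.08 in mRNA and 0.06 in footprints. RPL24 had rank 7 from the highest of the 16 targets in mRNA and rank 6 in footprints, below RPL15 and RPL21 (medians 1.45 and 1.31 in mRNA over control) and above RPL29 (0.14).

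Genes of DNA replication and mitosis fell in footprints and, in part, in mRNA. Of 40 mitosis genes, 24 were lower in mRNA and 36 in footprints, and none was higher in either. Among all genes, 13.4% were called lower in mRNA and 15.8% in footprints, shares that also apply to the DNA replication and histone counts here. Of 41 DNA replication genes tested in footprints, 31 were lower and none higher, while in mRNA 14 of 42 were lower and 1 higher. Of the histone genes expressed during replication, 38 of 44 were lower in mRNA and 32 of 49 in footprints, although these genes are near-identical copies whose reads may have been exchanged. CCNA2, cyclin A2, had 20.9 and 21.1 CPM of footprints against 154 to 176 CPM in the controls (-2.95 ± 0.12, adjusted p = 1.15e-16) and was called on sums too (-2.95 ± 0.36, adjusted p = 0.0389 by edgeR).

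CCNA2 mRNA, at 13.7 and 12.9 CPM, lay below the 43.8 to 94.5 CPM of the controls. CCNA2 footprints were lower also than in each of the 30 libraries of other knockdowns, which held 24.4 to 159 CPM. MCM3, a subunit of the replicative helicase, had 79.5 and 77.7 CPM of footprints against 222 to 251 CPM (-1.60 ± 0.08). CDK2, the kinase that cyclin A2 activates, had 26.9 and 24.8 CPM of footprints against 62.2 to 72.9 CPM, and E2F2, which drives transcription at entry into S phase, had 6.05 and 6.96 CPM of mRNA against 20.4 to 54.3 CPM. CCND1, cyclin D1, was not called, at 1060 and 969 CPM of mRNA within the control range of 709 to 1180 CPM. MYC was higher in both assays, with 432 and 373 CPM of footprints against 208 to 325 CPM (0.72 ± 0.13).

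The large-subunit targets spanned a wide range in these genes. The median footprint level of the DNA replication list stood at -2.12 for RPL15, -1.93 for RPL21 and -0.07 for RPL29, beside -0.46 and -0.58 in the RPL24 lysates. Set against the mean of RPL15, RPL21 and RPL29 alone, 33 of 41 DNA replication genes had more footprints in the RPL24 lysates and 1 had fewer, and 25 of 40 mitosis genes had more and 1 fewer, beside 8.41% and 5.81% of all genes. Against the 12 small-subunit targets alone, 7 DNA replication genes had more footprints and 6 fewer, and 1 mitosis gene had more and 13 fewer. Over all genes these shares were 15.8% and 11.7%, so the DNA replication counts, of 41 genes, were near the background. Mitosis mRNAs varied among controls, with list medians from -0.47 in control 20_2 to 0.38 in control 21_1, beside -0.72 and -0.70 in the RPL24 lysates. Without controls 21_1 and 21_2, 25 of 42 DNA replication mRNAs were lower (19% of all genes), and without control 20_2, 34 of 40 mitosis mRNAs were (18% of all genes). On the 8 libraries alone, none of the 42 DNA replication mRNAs and 4 of the 40 mitosis mRNAs were called lower, beside 0.968% of all genes.

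**Figure D2:**
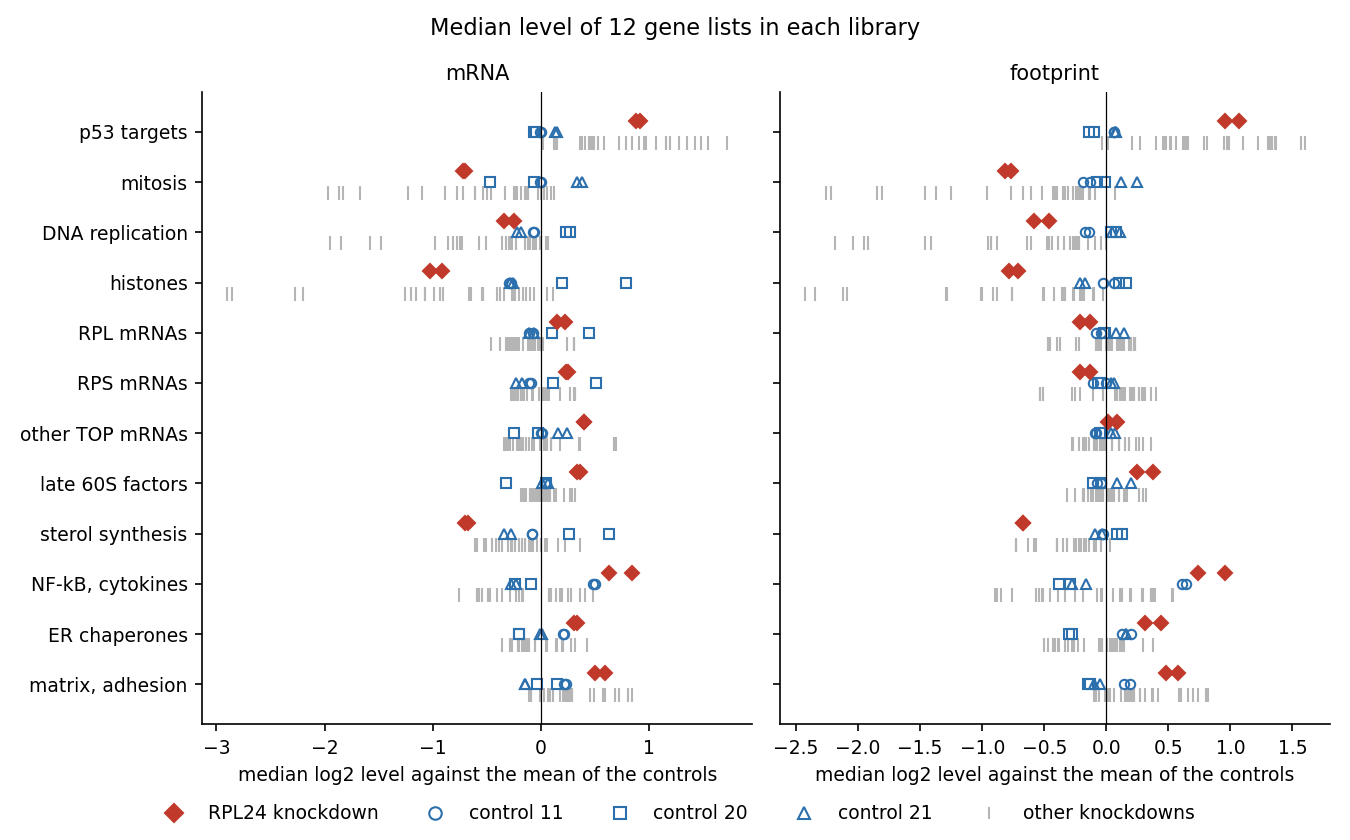
Median level of 12 gene lists in each library, as the log2 difference from the mean of the 6 controls, in mRNA (left) and footprints (right). Diamonds are RPL24 lysates, open symbols controls by sample number and grey ticks the 30 libraries of other knockdowns. The p53 list stands at 0.91 and 0.88 in mRNA, the mitosis list at -0.72 and -0.70, and for cytokine genes control 11 lies close to the RPL24 lysates.

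Ribosomal protein mRNAs mostly kept or gained mRNA, while several lost footprints. Of 46 tested mRNAs of other large-subunit proteins, 9 were higher and 2 lower in mRNA, and 4 were higher and 14 lower in footprints. Of the small-subunit mRNAs, 7 of 32 were higher and none lower in mRNA, and 3 of 31 were higher and 8 lower in footprints. Of the other TOP-type mRNAs, 13 of 23 were higher and none lower in mRNA, and 3 of 20 were higher and 3 lower in footprints. The shares over all genes were 12.1% higher and 13.4% lower in mRNA, and 15.5% and 15.8% in footprints. The footprint-to-mRNA ratio was lower for 7 of 46, 5 of 31 and 6 of 20 members of the 3 lists and higher for none, where 1.13% of all genes were called higher and 1.46% lower. Median log2 differences of the ratio were -0.39, -0.32 and -0.47, beside -0.03 over all 12654 genes.

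The exceptions in mRNA included RPL23A, a protein near the exit of the peptide tunnel, with 158 and 145 CPM against 241 to 388 CPM in the controls and 225 to 429 CPM in the other knockdowns. RPL5, which with RPL11 binds MDM2, had 556 and 539 CPM of mRNA against 366 to 473 CPM.

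RPLP0 and RPLP1 encode proteins of the stalk, on which elongation factors act. RPLP1 mRNA stood at 1550 and 1450 CPM, within the control range of 974 to 2120 CPM, but its footprints stood at 71.6 and 69.5 CPM against 183 to 228 CPM. Its ratio differed by -1.78 ± 0.19 (adjusted p = 4.79e-06). For RPLP0, footprints were 112 and 115 CPM against 238 to 262 CPM, and the ratio differed by -1.37 ± 0.17 (adjusted p = 3.19e-05). RPLP1 and RPLP0 differed in the ratio from the mean of the other knockdowns as well, by -1.55 ± 0.17 and -1.15 ± 0.15.

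RPS6, a small-subunit protein phosphorylated by S6 kinase, had 785 and 740 CPM of footprints against 1170 to 1830 CPM in the controls, and mRNA of 1690 and 1620 CPM among 1450 to 1730 CPM. Its ratio differed by -0.94 ± 0.13 (adjusted p = 0.000163). Footprints of RPS14 (0.68 ± 0.09) and RPS18 (0.73 ± 0.12) went the other way, among 3 small-subunit mRNAs with more footprints and 8 with fewer. Of the other TOP-type mRNAs, 3 had more footprints, among them PABPC1 (0.46 ± 0.07) and EIF3F (0.54 ± 0.12), and 3 had fewer. EEF1B2, a subunit of the factor that recharges eEF1A, and EEF2, the translocase, had more mRNA than every control, with 562 and 539 CPM against 406 to 495 CPM for EEF1B2. Footprints of EEF1B2 were 58.3 and 47.1 CPM against 70.0 to 90.1 CPM, and its ratio differed by -0.95 ± 0.15. The EEF2 ratio differed by -0.62 ± 0.15 (adjusted p = 0.0206), with footprints inside the control range. Other members with a lower ratio included RPL3, RPL4, RPL11, RPL13A and RPL21, RPS3A, RPS4X and RPS23, and EIF3H, EIF4B, IPO5 and RACK1, of which RPL11, RPL13A, RPL21, RPS3A, RPS4X, IPO5 and RACK1 were named after their values were seen. Footprints of RPL21 and RPS3A were below 3 CPM in the RPL24 and control libraries, so their ratios rest on few counts. EEF2K, the kinase that inhibits eEF2, had 14.3 and 16.1 CPM of footprints, overlapping the controls (-0.84 ± 0.22). Its ratio to control was not called (-0.74 ± 0.22, adjusted p = 0.0666).

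**Figure D3:**
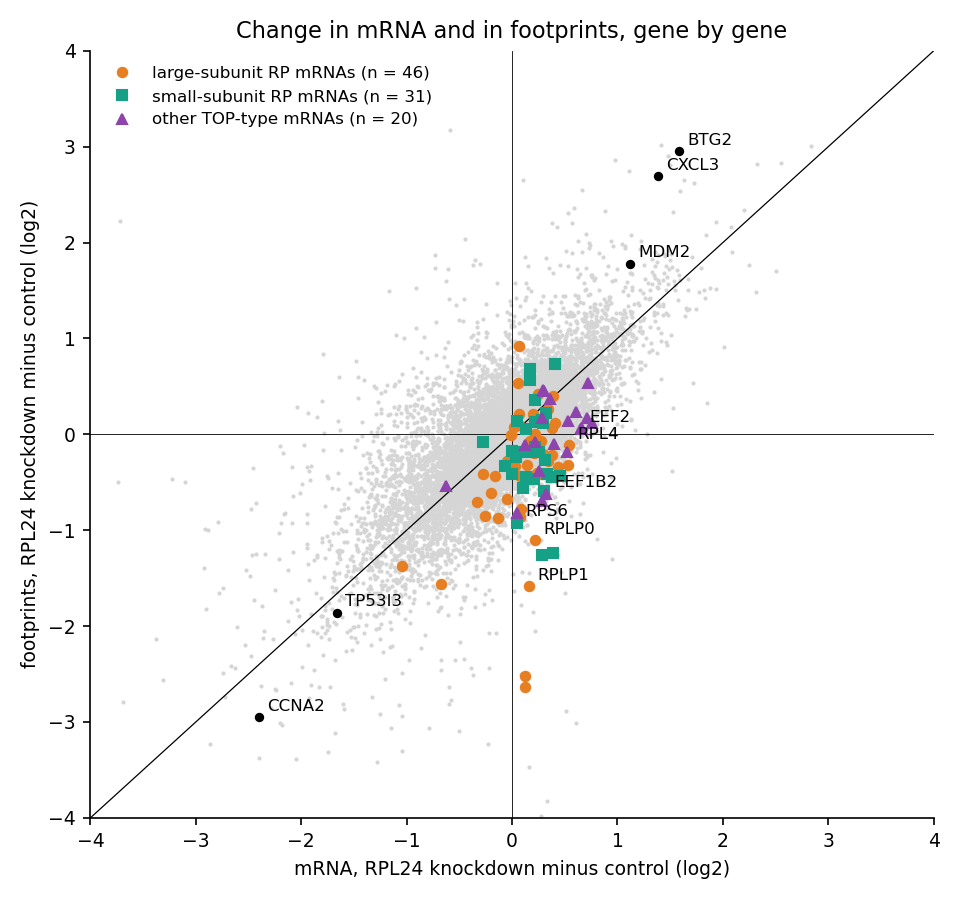
Log2 difference between RPL24 knockdown and control in mRNA (horizontal) and in footprints (vertical), 1 point per gene, with the diagonal of equal change. Ribosomal protein mRNAs (circles, squares) and other TOP-type mRNAs (triangles) lie mostly below the diagonal, with RPLP1 at 0.16 and -1.58, and BTG2 lies above it at 1.58 and 2.95.

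The ratio of these mRNAs differed widely between targets. In the ratio of large-subunit mRNAs, the RPL24 lysates stood at -0.38 and -0.41 relative to the control mean, and RPL24 had rank 3 from the lowest of the 16 targets. RPL21 (-0.68) and RPL15 (-0.65) were lower and RPL29 (-0.07) higher, while the 30 libraries of other knockdowns had a median of 0.30. The ratio of small-subunit and other TOP-type mRNAs gave RPL24 the same rank. Against the 12 small-subunit targets alone, the ratio of 26 of 46 large-subunit mRNAs, 16 of 31 small-subunit mRNAs and 10 of 20 other TOP-type mRNAs was lower, and of 0, 1 and 1 higher, beside 1.75% and 1.41% of all genes. Against RPL15, RPL21 and RPL29 alone, 1 gene was higher and 1 lower among all 12654 ratios (0.0079% each), so that no call in the 3 lists says nothing about them.

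Control 20_2 itself stood at -0.52 in large-subunit and -0.56 in small-subunit mRNAs, below the RPL24 lysates, through higher mRNA in that library (0.44 and 0.51). Without it, 17 of 46 large-subunit ratios and 11 of 31 small-subunit ratios were lower (4.6% of all genes), and 21 of 46 and 18 of 32 of these mRNAs were higher (17.6% of all genes). On the 8 libraries alone no ratio of any gene was called. The ribosomal protein genes have many processed pseudogenes, and how reads that map to several of them were counted is not given in the sources used here, so single members are uncertain.

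**Figure D4:**
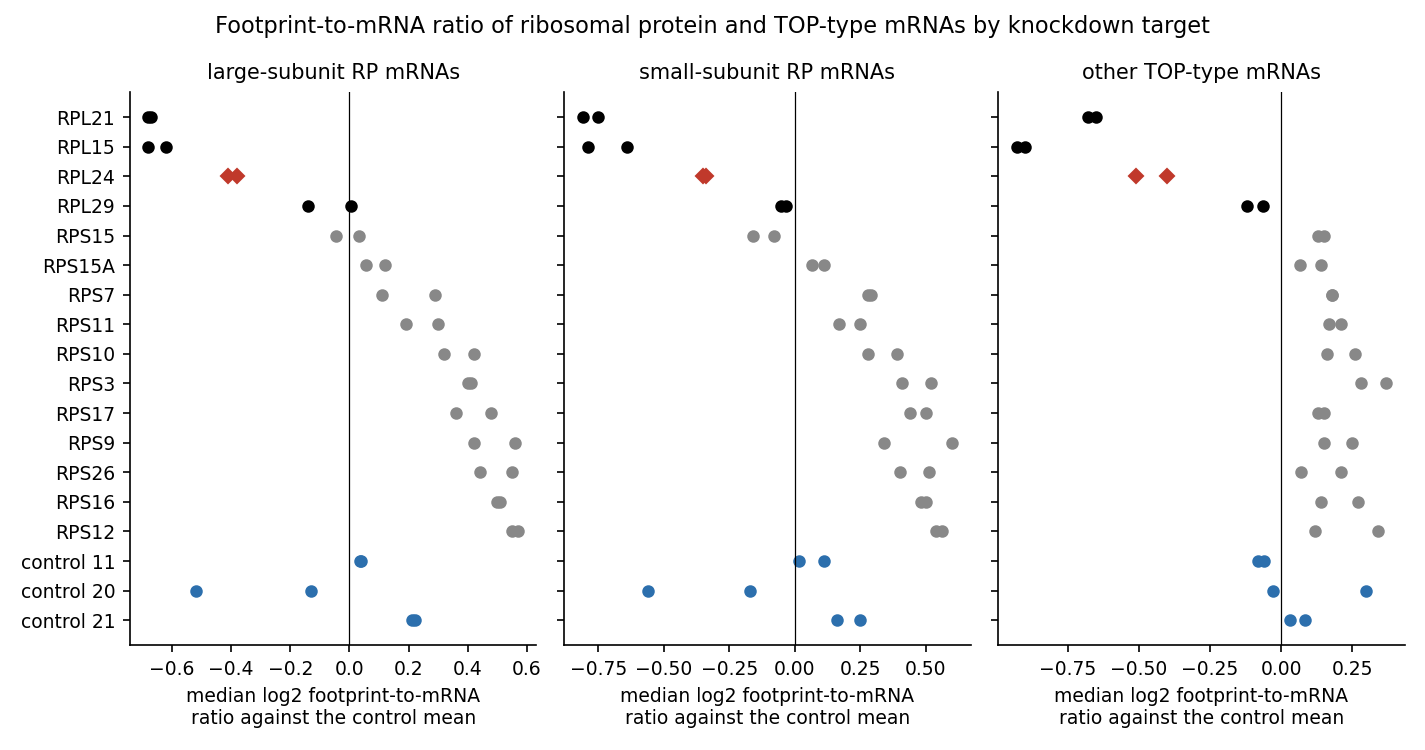
Median log2 footprint-to-mRNA ratio against the control mean for 3 lists, by knockdown target, 1 point per lysate, with large-subunit targets in black, 11 of the 12 small-subunit targets in grey, RPL24 as red diamonds and controls in blue. RPL24 (-0.38 and -0.41 in the large-subunit list) lies between RPL15 and RPL21 on the left and RPL29, and the 2 lysates of control 20 are far apart.

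Some mRNAs had more footprints per mRNA. EIF1, which governs start codon choice, had 2190 and 2340 CPM of footprints against 707 to 1020 CPM in controls and 517 to 1870 CPM in the other knockdowns, and its ratio was higher by 0.96 ± 0.18 (adjusted p = 0.00365). IER3, an immediate early gene, had 310 and 331 CPM of footprints against 58.6 to 131 CPM, with mRNA of 275 and 294 CPM inside the control range, and its ratio was higher by 1.55 ± 0.22 (adjusted p = 0.000192). YBX1, an mRNA-packaging protein, had 167 and 136 CPM of footprints against 57.5 to 106 CPM, and a ratio higher by 1.01 ± 0.27 than control and 1.13 ± 0.24 than the other knockdowns. FBN2, a fibrillin of the matrix, had a lower ratio in both comparisons (-1.13 ± 0.14 and -1.11 ± 0.13).

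RNF10, a ligase that marks small-subunit proteins of stalled ribosomes, had 61.2 and 56.1 CPM of footprints against 27.4 to 45.8 CPM, while its mRNA was not called, and its ratio was higher by 0.93 ± 0.16 over control and 1.46 ± 0.15 over the other knockdowns. PFDN4, a prefoldin subunit, led the genes named by size of ratio (2.08 ± 0.39), with mRNA of 4.35 and 4.00 CPM against 6.18 to 35.6 CPM and footprints inside the control range. ATF4 and ODC1, whose mRNAs carry regulatory upstream sequences, had more mRNA, and their footprints were not called. ATF4 mRNA stood at 769 and 733 CPM against 380 to 631 CPM, and its ratio differed by -0.88 ± 0.21. ODC1, the first enzyme of polyamine synthesis, had a ratio difference of -0.73 ± 0.17 (adjusted p = 0.0164), and SMOX, which oxidises spermine, had 381 and 359 CPM of footprints against 77.7 to 121 CPM. In the list with upstream open reading frames, 5 of 23 were higher and 5 lower than control in footprints, beside 15.5% and 15.8% of all genes. The higher ones included MDM2, IFRD1 (1.11 ± 0.14) and PPP1R15A (1.12 ± 0.18). Of the 23 ratios, 2 were lower and none higher, beside 1.46% and 1.13% of all genes. The list median of the ratio stood at -0.16 and -0.17 in the RPL24 lysates, beside -0.15 for RPL21 and -0.32 in control 20_2.

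Genes of inflammatory signalling rose over control and over the other knockdowns. Of the cytokine and NF-kB genes, 10 of 17 were higher in mRNA and 12 of 20 in footprints against control, beside 12.1% and 15.5% of all genes. Against the other knockdowns, 13 of 17 and 17 of 20 were higher, beside 10% and 13.9% of all genes. None was lower in these comparisons. CXCL3, a neutrophil-attracting chemokine, had 40.9 and 42.4 CPM of footprints against 2.05 to 14.4 CPM in controls and 1.30 to 21.3 CPM in the other knockdowns. CXCL8, another, had 59.5 and 71.0 CPM of footprints against 4.57 to 25.1 CPM, with log2 differences of 2.32 ± 0.36 from control and 2.30 ± 0.28 from the other knockdowns. CXCL2 followed in footprints (1.99 ± 0.42 over control, 2.53 ± 0.32 over the others).

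CXCL3 and CXCL2 also had a higher ratio, by 1.49 ± 0.31 and 1.54 ± 0.36 over control. TRAF1, an adaptor of TNF receptors, and ETS1, a transcription factor, were above all 30 libraries of other knockdowns in both assays, with 48.7 and 45.8 CPM of mRNA for TRAF1 against 5.99 to 44.9 CPM and 183 and 177 CPM for ETS1 against 21.1 to 141 CPM. The 2 lysates of control 11 were raised too, with list medians of 0.50 and 0.48 in mRNA beside 0.63 and 0.84 in the RPL24 lysates and -0.28 to -0.09 in the 4 other controls. Against RPL15, RPL21 and RPL29 alone, 1 of 17 in mRNA and 3 of 20 in footprints were higher, where 5.03% and 8.41% of all genes were. On the 8 libraries of RPL24 and control alone, 0 of 17 and 5 of 18 were, beside 1.02% and 7.24% of all genes.

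Sterol synthesis genes fell in both assays. Of 26, 19 were lower than control in mRNA and 20 in footprints, beside 13.4% and 15.8% of all genes, and none was higher. Against the other knockdowns, 11 and 15 were lower, beside 9.02% and 9.9% of all genes. SQLE, squalene epoxidase, had 91.9 and 92.3 CPM of footprints against 176 to 232 CPM in controls and 100 to 188 CPM in the other knockdowns (-1.13 ± 0.11 from control). RPL24 had the lowest median of the sterol list in mRNA among the 16 targets, with lysates at -0.70 and -0.68, and controls from -0.34 to 0.63. In footprints it had rank 2 from the lowest, with lysates at -0.67 and -0.67 and libraries of other knockdowns down to -0.73. Of the 26 genes, 3 in mRNA and 2 in footprints lay below all libraries of other knockdowns in both RPL24 lysates. On the 8 libraries alone, 1 of 26 was called lower in mRNA and 13 of 26 in footprints, beside 0.968% and 6.99% of all genes.

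Matrix and adhesion genes rose, 18 of 30 in mRNA and 19 of 31 in footprints, with none lower, beside 12.1% and 15.5% of all genes called higher. RPL24 had rank 4 from the highest of the 16 targets in both assays. In mRNA its lysates had list medians of 0.59 and 0.50, below RPL21 (0.82) and RPL15 (0.70). CCN1, a matricellular protein, had 230 and 203 CPM of mRNA against 61.8 to 79.5 CPM in controls and 52.2 to 193 CPM in the other knockdowns. TPM4, a tropomyosin, had 508 and 500 CPM against 106 to 157 CPM, but 404 to 901 CPM in the other knockdowns, from whose mean it differed by -0.32 ± 0.09. ACTA2, which encodes smooth-muscle actin, was higher than control by 1.82 ± 0.11 in mRNA. It also stands in the fibroblast marker list, in which 3 of 10 genes had enough mRNA to be tested, COL1A1 and THY1 being lower (-1.07 ± 0.22 and -1.13 ± 0.23). In footprints 7 of the 10 were tested, of which COL1A1 was lower and ACTA2, COL1A2 and COL3A1, the last 2 collagen genes, were higher. COL1A2 and COL3A1 rested on few counts and mainly on the first RPL24 lysate, with 1.19 and 0.145 CPM of footprints for COL1A2 against 0 to 0.0667 CPM, and 2.1 and 0.387 CPM for COL3A1 against 0 to 0.8 CPM. Both calls were lost without that lysate. Of the 10 blood cell and 8 endothelial markers, 2 and 1 passed the limit for testing in mRNA, and 4 and 1 in footprints. PTPRC and PECAM1, which define blood and endothelial cells, did not pass in mRNA. The blood cell marker CD14 was lower in mRNA (-1 ± 0.37, adjusted p = 0.0491 by edgeR), at a mean of 1.84 CPM and overlapping the controls. The endothelial marker that passed, the adhesion molecule ESAM, was higher in mRNA (0.67 ± 0.24, adjusted p = 0.0379) at 13.7 and 11.6 CPM against 4.25 to 11.8 CPM, and in footprints (0.84 ± 0.25, adjusted p = 0.0117), calls that were also lost without the first RPL24 lysate. On the 8 libraries alone, 7 of 30 matrix mRNAs were higher, beside 1.02% of all genes.

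Factors of late 60S maturation rose in part, with 11 of 25 higher in mRNA and 12 in footprints, beside 12.1% and 15.5% of all genes. AFG2A was the only one lower in either assay. GNL3L, a nucleolar GTPase, had 173 and 163 CPM of mRNA against 68.7 to 126 CPM, and ZNF622, a factor of the cytoplasmic pre-60S particle, had 93.0 and 93.1 CPM of footprints against 50.6 to 54.6 CPM. AFG2A, an ATPase that frees RSL24D1 from the pre-60S particle, had 14.3 and 15.2 CPM of mRNA against 25.4 to 45.4 CPM (-1.31 ± 0.16), and 17.1 to 39.2 CPM in the other knockdowns. The list median stood highest of the 16 targets in both assays. In footprints the RPL24 lysates stood at 0.38 and 0.25, and the highest library of other knockdowns at 0.32. RPL24 also stood highest for several other lists, among them polyamine genes in mRNA and ribosome rescue factors in footprints.

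Targets of the integrated stress response included TRIB3, with 122 and 120 CPM of footprints against 39 to 69.1 CPM, and ATF3, with 20.2 and 21.9 CPM against 4.65 to 11.2 CPM. Of 33 tested in footprints, 8 were higher and 4 lower than control, with a list median of 0.05 beside -0.04 over all genes. Among all genes, 15.5% were called higher and 15.8% lower in footprints, and these shares apply to the next lists too. In the endoplasmic reticulum chaperone list, 11 of 22 were higher in footprints and none lower, among them HERPUD1, while XBP1, a transcription factor of the unfolded protein response, had less mRNA (-0.76 ± 0.10) and a higher ratio (0.68 ± 0.15). Factors of ribosome rescue and quality control had 12 of 31 higher and 4 lower in footprints, with ASCC2, a subunit of the complex that splits collided ribosomes, higher by 0.71 ± 0.09 and HBS1L, a rescue GTPase, at -1.31 ± 0.17. Heat shock chaperones had 6 of 20 lower and none higher in footprints, led by HSPA1A and HSPA1B, whose near-identical reads may have been exchanged.

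Of the nucleolar 60S assembly factors 9 of 36 were higher and 1 lower in mRNA, of the initiation factors 13 of 39 and 2, of the elongation factors 6 of 19 and 1, and of the G1 cyclins and inhibitors 2 of 20 and 7. In footprints the same lists had 12 higher and 2 lower, 12 and 4, 2 and 4, and 2 and 10. EIF4EBP2, an inhibitor of cap-dependent initiation, was lower in both assays (-1.28 ± 0.10 and -1.65 ± 0.18). Interferon genes had 0 of 19 higher and 2 lower in mRNA, NRF2 targets 2 of 22 and 2, polyamine genes 2 of 19 and 1, and mitochondrially encoded genes 0 of 13 and 2, with list medians among the controls from -1.25 to 1.40 for the last. In footprints these had 2 of 20 higher and 1 lower, 5 of 22 and 5, 1 of 19 and 2, and 1 of 13 and 0. Over all genes, 12.1% were called higher and 13.4% lower in mRNA, and 15.5% and 15.8% in footprints. Counts such as the 2 and 2 of 22 NRF2 targets in mRNA thus stood near the background.

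Several of the largest single changes lay outside these lists. GANAB, the glucosidase II subunit that trims nascent glycans, had 545 and 539 CPM of mRNA against 91.2 to 189 CPM in controls and 297 to 481 CPM in the other knockdowns (2.09 ± 0.15 over control, 0.49 ± 0.14 over the others). TUFT1 and BICD2, a dynein adaptor, had footprints higher by 2.62 ± 0.10 and 2.65 ± 0.13, and both were called on sums per sample number. SLC16A13, a monocarboxylate transporter, fell in both assays, with 3.67 and 4.35 CPM of mRNA against 19.1 to 47.3 CPM in controls and 10.2 to 44.2 CPM in the other knockdowns. PIP4K2A, a phosphoinositide kinase, fell likewise in footprints (6.46 and 6.48 CPM against 35 to 41.9 CPM). On sums per target, footprints of SKP1 (-1.59 ± 0.27) and ELMO2 (-1.41 ± 0.24) were called lower than in the other knockdowns, beside RPL24 (adjusted p = 0.0408 for both by edgeR), and both were named after their values were seen. SKP1 is the adaptor of the SCF ubiquitin ligase and ELMO2 a partner of DOCK proteins.

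Across all genes, 1918 were higher and 2131 lower in mRNA, 2016 and 2059 in footprints and 143 and 185 in the ratio. Of 12654 genes tested in both assays, 1012 were higher in both and 1072 lower in both, while 6 were lower in mRNA and higher in footprints and 15 the reverse. Against the other knockdowns, 1590 and 1433 genes were called in mRNA, 1802 and 1287 in footprints and 90 and 118 in the ratio. On sums per sample number, which set 1 value against 3, edgeR called 0 higher and 1 lower in mRNA, 3 and 2 in footprints, and 0 and 1 in the ratio, the last a gene without a symbol. At an unadjusted level of 0.05 there were 208 and 320 genes in mRNA (1.43% and 2.2%), 4.54% and 4.78% of the genes in footprints, and 111 and 45 genes in the ratio (0.933% and 0.378%), where uniform p-values would give 2.5% each way, and DESeq2 was not run on these sums.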

How the data were processed

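RNA-seq and Ribo-seq of the same lysates were deposited as raw read counts per gene, per the file headers. Per the submitters' processing notes, STAR 2.6.1 and the build GRCh38 were used, after cutadapt 1.8.1 and bcl2fastq 2.20.0.422, and the counting rule is not given in the sources used here. Counts were analysed with edgeR 4.0.16 in R 4.3.3 (TMM, quasi-likelihood test, Benjamini-Hochberg, threshold 0.05), tested on simulated data. A gene entered when 2 or more of the 38 libraries of an assay held 1 CPM or more. The fit held 38 lysates with sample numbers: RPL24, control and 15 other targets. The ratio was tested as an interaction of assay and group with a term for each lysate. Alternatives were DESeq2 1.42.0, limma 3.58.1, other scalings, filters and sample sets, and, added after seeing the data, sums per sample number or target. Named genes were, per measure, the 10 largest called changes each way against control and 6 against the other knockdowns outside the reference range, the 3 smallest p-values of each of 28 lists, and 7 fixed genes besides RPL24. The comparison and the lists were chosen with earlier results of these data known. Counting error alone puts the limit of 0 counts at 3 counts, or 0.0643 to 0.199 CPM. Results on a few items are not reported here.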

Additional observations from a re-analysis of the deposited data

Results flagged for a closer look

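Among 115 pairs of a reported gene and a measure, 7 had 1 control library far from the 5 others, by a gap that passed Dixon's test at the 95% level. Chance flags about 1 in 20 groups of independent values, but the controls come in pairs of mostly alike lysates, so this rate may not hold here. Of the 7, 5 were control 20_2. In that library RNF10 mRNA stood at 309 CPM (other controls 195 to 233 CPM), ACTA2 mRNA at 8.89 CPM (5.98 to 6.97 CPM) and RPLP0 footprints at 262 CPM (238 to 244 CPM). Its log2 footprint-to-mRNA ratio was -0.22 for EEF2 (0.31 to 0.52) and 1.79 for EIF3H (1.38 to 1.45). XPC mRNA stood at 30.8 CPM in control 11_1, where the other controls held 26.3 to 27.9 CPM, and both RPL24 lysates were above all of these. COL3A1 footprints stood at 0.8 CPM in control 11_2 and at 0 to 0.197 CPM in the other controls.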

How the results depend on the processing

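Numbers of called genes are given as higher and lower. DESeq2 size factors, no filter and leaving out controls 21_1 and 21_2 kept each count within 1.5 times. All lysates of the series and DESeq2's Wald test did so for mRNA and footprints, and were not run on the ratio. On RPL24 and control libraries alone, mRNA calls were 154 and 146, footprint calls 895 and 864, and ratio calls 0 and 0. On sums per sample number they were 0 and 1, 3 and 2, and 0 and 1, and on sums per target, against the other knockdowns, 0 and 1, 0 and 3, and 0 and 0. Against RPL15, RPL21 and RPL29 only, they were 798 and 650, 1094 and 756, and 1 and 1, and against the 12 small-subunit targets only, ratio calls were 179 and 221. Without a lysate term, 93 ratios were higher than control and 53 than the other knockdowns. Leaving out 1 lysate in turn gave, against control, 994 to 2784 and 890 to 2858 in mRNA, 1160 to 2207 and 1006 to 2289 in footprints, and 5 to 471 and 11 to 582 in the ratio. The ratio counts were highest without control 20_2, and the lowest came without RPL24 lysate 1 (5 and 11), with 15 and 22 without lysate 2. Against the other knockdowns, without either RPL24 lysate, the ranges were 489 to 651 and 405 to 521, 645 to 895 and 431 to 598, and 3 to 7 and 13 to 19. RPL24 itself kept its direction in each setting and its mRNA and footprint calls. The cause of these shifts was not tested. Most of these settings also held fewer samples. Replicate numbers are only shared: deviations of same-numbered lysates correlated with RPL24's at 0.14, -0.429 and -0.109 in RNA-seq and 0.0422, -0.146 and -0.0593 in Ribo-seq. With the replicate block, mRNA calls were 1857 and 2047, footprint calls 2030 and 2059 and ratio calls 149 and 199 against control.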
